A study of Mus musculus with 6 samples.

Results

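The thick ascending limb of the loop of Henle is the nephron segment that takes up salt without water, and 9 genes that carry or control its transport are described here in whole kidneys of mice with a high or a low load of a mitochondrial tRNA mutation. The 9 genes were listed by name (Slc12a1, Umod, Cldn10, Cldn16, Cldn19, Bsnd, Kcnj1, Casr and Ptger3). All 9 were found among the 32285 gene IDs of the count table, and all 9 passed the filter on low counts. RNA-seq was available from 6 kidneys of female mice aged 100 weeks. All carried mutant TrnE, which encodes the mitochondrial tRNA for glutamate, and neither the strain nor the base changed is given in the labels. The high-load group held 3 kidneys labelled with a mutation load, the share of mitochondrial DNA copies that are mutant, of 75%, 75% and 80% (high-load 1 to 3), and the low-load control group held 3 kidneys with 10%, 5% and 15% (low-load 1 to 3). The controls therefore carried the mutation too.

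In this segment the cotransporter NKCC2 (Slc12a1) brings sodium, potassium and chloride in from the urine, the channel ROMK (Kcnj1) returns the potassium, and chloride leaves on the blood side through channels that need the subunit barttin (Bsnd). The potassium return makes the lumen positive, and this voltage drives sodium through junctions of claudin-10 (Cldn10), and calcium and magnesium through junctions of claudin-16 and claudin-19 (Cldn16, Cldn19). The calcium-sensing receptor (Casr) and the prostaglandin E2 receptor EP3 (Ptger3) restrain transport, and uromodulin (Umod) is the main protein these cells secrete into urine.

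Library totals ranged from 17449270 to 18865997 counts. The 9 genes together took 0.541%, 0.483% and 0.433% of counts in high-load 1 to 3, against 0.556%, 0.744% and 0.522% in low-load 1 to 3. A pair of libraries stood apart in markers of other cells and 1 in mitochondrial counts. High-load 1 had a summed level of 229 CPM (counts per 1000000 counts of the TMM-scaled library) for 6 urothelial markers and 168 CPM for 6 lymphocyte markers, and the other 5 kidneys had 2.51 to 47.3 CPM and 12.2 to 37.6 CPM. High-load 1 also had the lowest sum of proximal tubule markers, 3806 CPM against 11235 to 25357 CPM in the other 5 kidneys. Its TMM factor was the largest, 1.14 against 0.944 to 0.997. Low-load 2 had 1103 CPM for 8 principal cell markers, and the other 5 kidneys had 490.2 to 737 CPM. High-load 3, the kidney with the lowest Slc12a1, had 15.9% of counts from mitochondrial genes, against 9.91% to 11.7% in the other 5 kidneys. The Slc12a1 log2 fold change was -0.67 with or without the mitochondrial genes in the fit. Leaving these genes out keeps the same kidneys and their other counts, so the part of the mitochondrial share in the Slc12a1 values was not tested. Thick ascending limb identity was present in every kidney, with Umod at 2933 CPM or more and Slc12a1 at 767 CPM or more.

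The DNA before the start of 4 members is shown because Slc12a1, Umod and Cldn10 were the members whose CPM were lower in every high-load kidney than in every low-load kidney, while Cldn16 was the member with the largest positive log2 fold change. The windows are from RefSeq on GRCm38.p6, written 5′ to 3′ on the gene's strand, and end before any annotated transcript start. Any part of the 250 bases searched that lies past a start is not shown. The windows are chr2:125152350-125152504 (plus) for Slc12a1, chr7:119479283-119479512 (minus) for Umod, chr14:118787621-118787870 (plus) for Cldn10 and chr16:26462885-26463134 (plus) for Cldn16. Capitals mark GTTAAT or its reverse complement ATTAAC, the half-site of the HNF1 factors, which are regulators of tubule genes.
Slc12a1: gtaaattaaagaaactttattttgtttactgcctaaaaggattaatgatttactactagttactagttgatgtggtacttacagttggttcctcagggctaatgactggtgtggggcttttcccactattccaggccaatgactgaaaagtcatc
Umod: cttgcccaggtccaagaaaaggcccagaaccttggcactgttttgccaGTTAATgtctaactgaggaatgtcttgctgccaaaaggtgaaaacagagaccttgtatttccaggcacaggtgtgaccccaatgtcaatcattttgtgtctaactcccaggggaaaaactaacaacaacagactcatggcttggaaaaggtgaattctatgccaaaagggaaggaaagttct
Cldn10: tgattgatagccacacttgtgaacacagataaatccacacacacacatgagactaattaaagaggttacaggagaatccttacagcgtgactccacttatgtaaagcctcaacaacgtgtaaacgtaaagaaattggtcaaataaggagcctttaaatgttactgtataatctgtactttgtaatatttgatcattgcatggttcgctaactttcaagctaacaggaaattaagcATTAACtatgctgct
Cldn16: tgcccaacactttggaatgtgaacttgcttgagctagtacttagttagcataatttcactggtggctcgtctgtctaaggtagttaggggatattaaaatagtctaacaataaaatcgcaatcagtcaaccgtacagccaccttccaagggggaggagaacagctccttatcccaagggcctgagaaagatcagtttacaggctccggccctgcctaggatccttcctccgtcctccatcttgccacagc
The half-site occurred once before Umod and once before the first start of Cldn10. It was not among these letters before Slc12a1 or Cldn16, nor in the windows of Ptger3, Cldn19, Kcnj1, Casr or the second start of Cldn10. Of 32851 windows of 250 bases before RefSeq starts, 6.43% held it on either strand. AAGGTCA (the half-site of the estrogen-related receptors, 4.08% of all windows) and TATAAA (the TATA box, 12.4%) were in none of the 10 windows of the members, and 8 of 9 members matched a promoter entry.

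Per kilobase of exon, uromodulin mRNA was the most abundant of the 9 in every kidney. It stood at 1062 to 1962 CPM per kb over the 6 kidneys, followed by Slc12a1 at 133 to 291 and Kcnj1 at 79.6 to 97.6 CPM per kb. Cldn10 ranged from 34.4 to 82.7 CPM per kb, so that its highest kidney lay within the range of Kcnj1. Bsnd was next at 19.2 to 28.9 CPM per kb. Cldn19 (13.0 to 17.8), Cldn16 (8.78 to 16.5) and Ptger3 (7.84 to 16.3 CPM per kb) overlapped each other, and Casr was lowest at 4.55 to 7.65 CPM per kb. With the longest transcript as length in place of all exons, Ptger3 moved to rank 6 of 9, ahead of Cldn19 and Cldn16.

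High-load kidneys differed most from low-load kidneys in Cldn10 and Slc12a1, and no member passed the test over all genes. In edgeR's quasi-likelihood test 0 of 9 members had an adjusted p under 0.05 in either direction, and over all 15955 genes tested 0.0188% were called higher and 0% lower. At an adjusted p under 0.1 there were also 0 members, where all genes gave 2.59% higher and 0.608% lower. At an unadjusted p under 0.05, 2 members were lower (Cldn10 and Slc12a1) and 1 higher (Cldn16), where all genes gave 10.2% lower, 14% higher and 24.2% in either direction. Of the 9 members 6 had a fold change below 1, against 49.1% of all genes, and 3 above 1, against 50.9%. The members' median log2 fold change was -0.11 against 0.0067 over all genes. In 3 of 9 members all high-load kidneys lay below all low-load kidneys, which held for 15.8% of all genes, and in 0 of 9 they all lay above, against 17.1% (33% for either direction). With libraries scaled by their totals alone, Umod overlapped and Cldn16 did not, so that 2 of 9 lay below, against 9.36% of all genes, and 1 of 9 above, against 24.1%. DESeq2 called 2 members lower, Cldn10 and Slc12a1, and 0 higher, where it called 3.77% of genes lower and 6.47% higher, and limma-voom called 0 members.

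**Figure D1:**
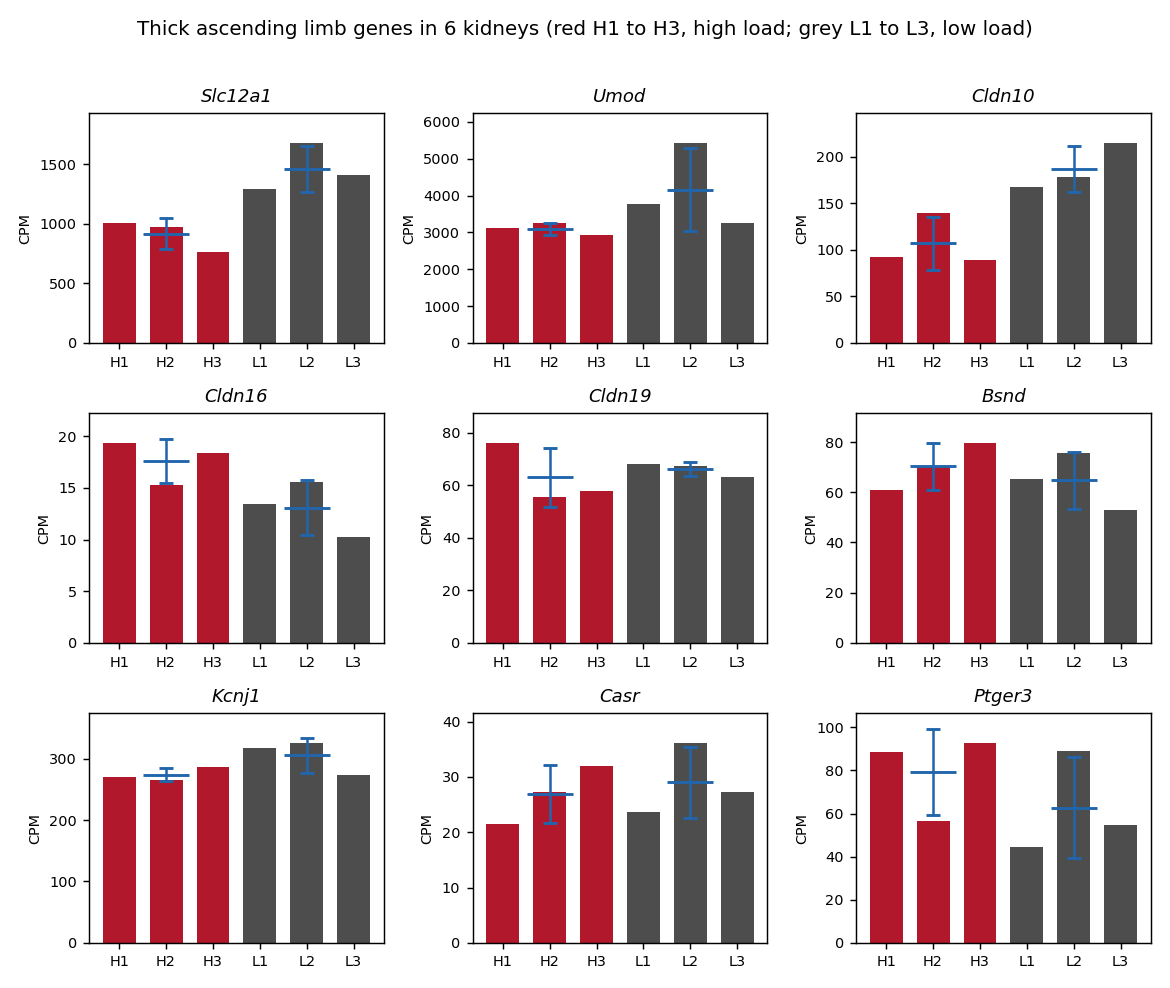
Normalised read counts (CPM, linear axes from 0) of the 9 genes in each kidney, high-load 1 to 3 in red on the left (H1 to H3) and low-load 1 to 3 in grey on the right (L1 to L3); blue marks give the group mean ± SD. Slc12a1, Umod and Cldn10 were lower in all 3 high-load kidneys than in any low-load kidney, and the groups overlapped in the other 6 genes; by library totals alone Umod overlapped and Cldn16 did not.

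Slc12a1 (ENSMUSG00000027202, chromosome 2, 125152505 to 125230002, plus strand, mm10), which encodes NKCC2, the target of loop diuretics, stood at 1005, 975 and 767 CPM in high-load 1 to 3, against 1294, 1677 and 1410.3 CPM in low-load 1 to 3. The highest high-load kidney was below the lowest low-load kidney. The means were 916 ± 129.7 CPM in high-load and 1460.3 ± 196 CPM in low-load kidneys (SD, n = 3 each), a log2 fold change of -0.67 (SE 0.19, edgeR adjusted p = 0.126). DESeq2 gave an adjusted p of 0.00257 for it. In a whole kidney, fewer cells of a type and less RNA per cell cannot be told apart.

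Kcnj1 (ENSMUSG00000041248, chromosome 9, 32372493 to 32399197, plus strand), which encodes ROMK and is also expressed in the collecting system, had 270.0, 265 and 286 CPM in high-load 1 to 3, against 318, 325 and 273 CPM in low-load 1 to 3. The groups overlapped through low-load 3. Its log2 fold change was -0.16, with a 95% interval from -0.44 to 0.13 (edgeR adjusted p = 0.443).

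Barttin mRNA (Bsnd, ENSMUSG00000025418, chromosome 4, 106483456 to 106492283, minus strand), whose protein also serves chloride exit in intercalated and distal cells, was at 61.0, 70.3 and 79.5 CPM in high-load 1 to 3, against 65.3, 75.8 and 52.9 CPM in low-load 1 to 3. The groups overlapped, with the lowest kidney in the low-load and the highest in the high-load group. The log2 fold change was 0.12, with a 95% interval from -0.26 to 0.50 (edgeR adjusted p = 0.670), and it was -0.0091 without low-load 3. Among 7 intercalated cell markers 4 had a fold change above 1, with summed levels of 415 to 471 CPM in high-load and 362 to 426 CPM in low-load kidneys, and the sums overlapped. The smallest p values of that list were those of Atp6v0d2, a proton pump subunit, and Foxi1, the identity factor of these cells, at log2 fold changes of 1.38 and 0.83 (edgeR adjusted p = 0.0696 and 0.102). At an unadjusted p under 0.05 the list had 3 higher and 1 lower (DESeq2 3 higher and 1 lower). All genes gave 14% higher and 10.2% lower (DESeq2 6.47% higher and 3.77% lower). The part of intercalated cells in the Bsnd counts was not tested.

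The 3 claudins had fold changes on both sides of 1. Cldn10 (ENSMUSG00000022132, chromosome 14, 118787908 to 118875489, plus strand) had 92.0, 139.7 and 89.2 CPM in high-load 1 to 3, against 167, 178 and 214 CPM in low-load 1 to 3. High-load 2 came nearest to the low-load kidneys and still lay below all of them. The group means were 107 ± 28.4 CPM in high-load and 186 ± 24.7 CPM in low-load kidneys (SD, n = 3 each), a log2 fold change of -0.80 (SE 0.20, edgeR adjusted p = 0.114). Without high-load 2 the log2 fold change was -1.04 with an adjusted p of 0.0267, where 1.62% of all genes were called lower and 3.34% higher, and DESeq2 on all 6 kidneys gave an adjusted p of 0.00674. One claudin-10 isoform is a sodium pore of the ascending limb and another an anion pore of the proximal tubule, and counts per gene sum both.

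All 11 proximal tubule markers had a fold change below 1, with 0 past the edgeR test and 2 lower at an unadjusted p under 0.05 and in DESeq2. These were Slc27a2, a fatty acid transporter, and Slc13a3, a dicarboxylate carrier, with log2 fold changes of -1.03 and -1.13. The list's summed level was 3806, 21260.1 and 11235 CPM in high-load 1 to 3, against 18945, 20431 and 25357 CPM in low-load 1 to 3. Kap, a kidney androgen-regulated gene, made up 9589 CPM of the sum in high-load 2. Without Kap the sum was 3656, 11671 and 8280.3 CPM in high-load 1 to 3, against 13837, 16023 and 14757 CPM in low-load 1 to 3, with no overlap. Among all genes 49.1% had a fold change below 1, 10.2% were lower at an unadjusted p under 0.05, and DESeq2 called 3.77% lower. The part of proximal tubule RNA in the Cldn10 result was not tested.

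Cldn16 (ENSMUSG00000038148, chromosome 16, 26463135 to 26482765, plus strand), a gene of inherited magnesium loss in humans, had 19.3, 15.3 and 18.4 CPM in high-load 1 to 3, against 13.4, 15.6 and 10.3 CPM in low-load 1 to 3. A pair of high-load kidneys lay above every low-load kidney, and high-load 2 fell just under low-load 2. The log2 fold change was 0.43 (SE 0.18) with an edgeR adjusted p of 0.206, and it was 0.28 without low-load 3. Its counts were the lowest of the 9 genes, from 189 to 409 per library.

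Cldn19 (ENSMUSG00000066058, chromosome 4, 119255414 to 119262438, plus strand), the partner of claudin-16 in the same junctions, had 76.0, 55.5 and 57.7 CPM in high-load 1 to 3, against 68.1, 67.1 and 63.3 CPM in low-load 1 to 3. The high-load kidneys lay on both sides of the low-load range. The log2 fold change was -0.07, with a 95% interval from -0.38 to 0.25 (edgeR adjusted p = 0.778), and it was 0.064 when libraries were scaled by their totals alone. An exon of Cldn19 shares 90 bp with Gm12927 on the opposite strand, which had 9 to 41 counts per library.

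The ratio of the claudins within each kidney does not depend on library scaling. There were 4.76, 9.16 and 4.85 Cldn10 counts per Cldn16 count in high-load 1 to 3, against 12.4, 11.4 and 20.8 in low-load 1 to 3. The ratio of Cldn19 to Cldn16 was 3.93, 3.64 and 3.14 in high-load 1 to 3, against 5.07, 4.32 and 6.14 in low-load 1 to 3. Both ratios were lower in every high-load kidney than in every low-load kidney, and as these pairs were chosen after their values were seen they carry no test. Both share the Cldn16 counts, whose log2 fold change was 0.43. The share of all genes that lay lower per Cldn16 count was not computed, so the ratios are not a result about Cldn10 or Cldn19.

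Uromodulin mRNA (Umod, ENSMUSG00000030963, chromosome 7, 119462711 to 119479282, minus strand), whose inherited mutations cause a dominant tubulointerstitial kidney disease, was at 3123, 3250.4 and 2933 CPM in high-load 1 to 3, against 3786, 5422 and 3260.1 CPM in low-load 1 to 3. The gap between high-load 2 and low-load 3 was small, and low-load 2, the kidney with the highest principal cell sum, stood far above the rest. The means were 3102 ± 159.6 CPM in high-load and 4156 ± 1127 CPM in low-load kidneys (SD, n = 3 each), a log2 fold change of -0.42 (SE 0.25, edgeR adjusted p = 0.332). Without low-load 2 the log2 fold change was -0.19. With libraries scaled by their totals alone, high-load 1 and high-load 2 had 3550.2 and 3237 counts per 1000000 and lay above low-load 3 at 3172. Its exons share 539 bp with Gm44588 on the opposite strand, which had 0 counts in every library.

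The receptors that restrain transport showed overlapping groups. Casr (ENSMUSG00000051980, chromosome 16, 36493696 to 36562141, minus strand), through which blood calcium lowers its own uptake, had 21.5, 27.3 and 32.0 CPM in high-load 1 to 3, against 23.6, 36.1 and 27.3 CPM in low-load 1 to 3. The lowest kidney was a high-load and the highest a low-load one. The log2 fold change was -0.11, with a 95% interval from -0.59 to 0.37 (edgeR adjusted p = 0.771), and it was 0.034 without high-load 1 and 0.075 without low-load 2.

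Ptger3 (ENSMUSG00000040016, chromosome 3, 157566892 to 157645888, plus strand), the EP3 receptor that lowers cyclic AMP, had 88.6, 56.4 and 92.7 CPM in high-load 1 to 3, against 44.6, 89.0 and 54.7 CPM in low-load 1 to 3. The groups overlapped, with low-load 2 among the high-load kidneys and high-load 2 among the low-load kidneys. The log2 fold change was 0.34, with a 95% interval from -0.37 to 1.05 (edgeR adjusted p = 0.514), and it was 0.67 without low-load 2 and 0.14 without low-load 1.

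**Figure D2:**
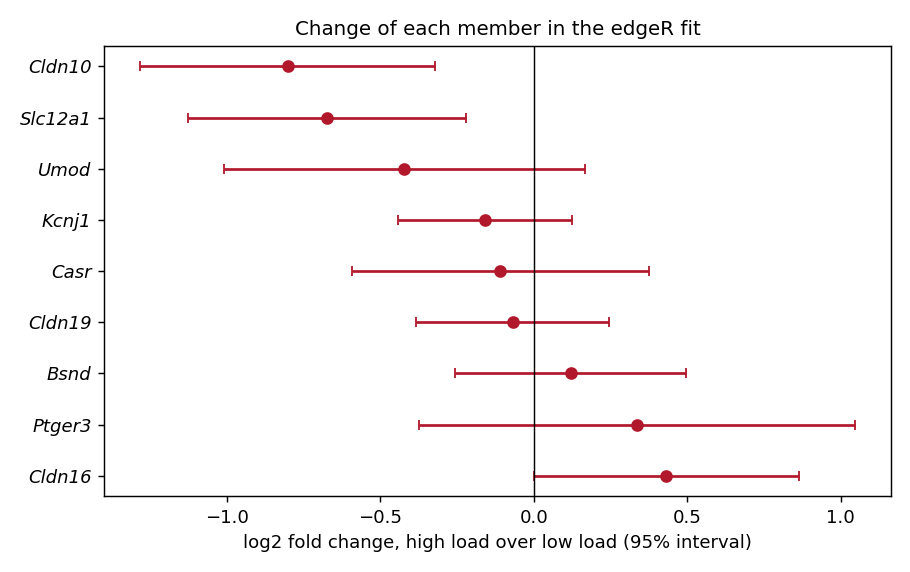
Log2 fold change of each member, high-load over low-load kidneys, from the edgeR fit of 3 against 3 kidneys; points are estimates and bars 95% intervals. Cldn10 (-0.80) and Slc12a1 (-0.67) had intervals that ended below 0, and the interval of Cldn16 (0.43) began at 0.00098.

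**Figure D3:**
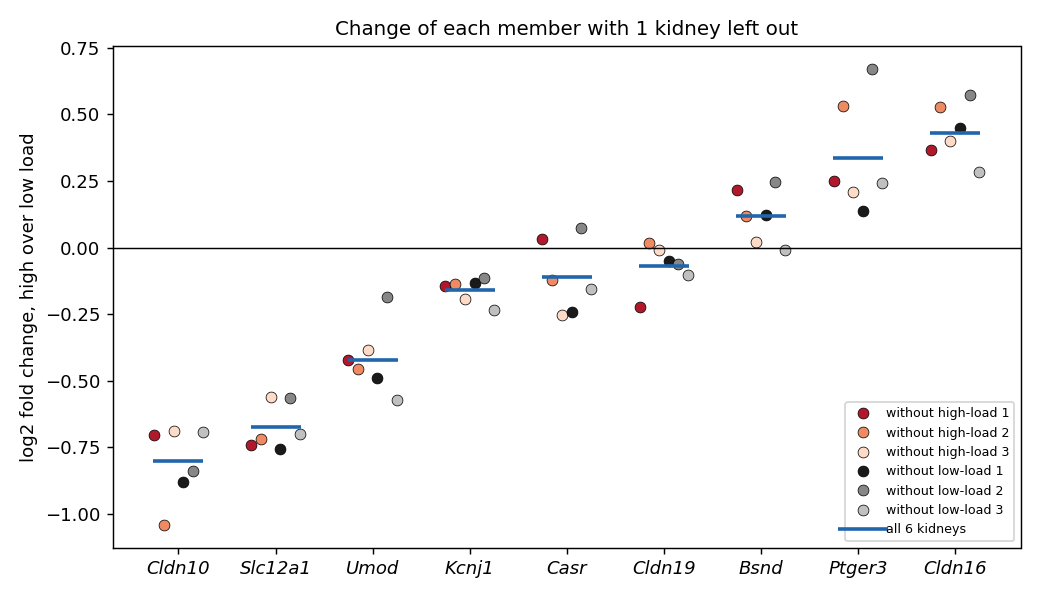
Log2 fold change of each member with each kidney left out in turn (points, coloured by the kidney left out) and with all 6 kidneys (blue dashes). Cldn10 stayed between -1.04 and -0.69 and Slc12a1 between -0.76 and -0.56, while Umod lay between -0.57 and -0.19 and Casr, Cldn19 and Bsnd had points on both sides of 0.

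Counts of 5 of the 8 other members per Slc12a1 count were higher in every high-load kidney than in every low-load kidney. So were those of 67.1% of all other genes, with 0.276% lower in every one, and Slc12a1 itself was lower in the high-load kidneys. The members' share is near that background and is not a result about them. Ptger3 had 8.81, 5.78 and 12.1 counts per 100 Slc12a1 counts in high-load 1 to 3, against 3.45, 5.31 and 3.88 in low-load 1 to 3. Cldn16 had 1.92, 1.56 and 2.39 counts per 100 Slc12a1 counts in high-load 1 to 3, against 1.04, 0.928 and 0.730 in low-load 1 to 3. The other 3 that lay above were Bsnd, Cldn19 and Kcnj1.

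The mean log2 ratio differed between high-load and low-load kidneys by 1.12 for Cldn16, 1.04 for Ptger3, 0.80 for Bsnd, 0.59 for Cldn19 and 0.52 for Kcnj1. Each of these 5 had an exact two-sided permutation p of 0.1, the smallest that 3 against 3 kidneys can give, so that this test could not pass 0.05, and 0.16 after Benjamini-Hochberg adjustment over 8 ratios. The ratios of Umod (0.29, exact permutation p = 0.2), Casr (0.57, exact permutation p = 0.2) and Cldn10 (-0.15, exact permutation p = 0.6) overlapped between groups, with adjusted values of 0.229, 0.229 and 0.6. All 8 ratios share the Slc12a1 counts, which were lower in high-load kidneys, so they are not independent of each other.

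**Figure D4:**
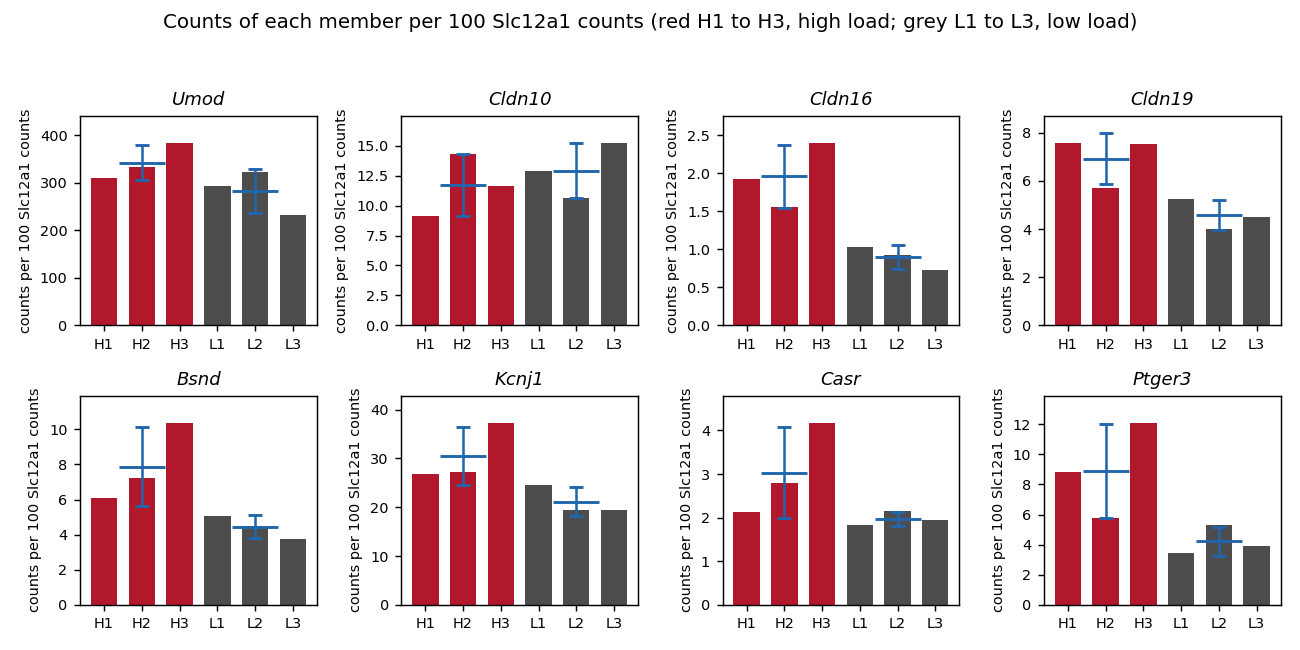
Counts of each other member per 100 Slc12a1 counts in each kidney, high-load in red on the left and low-load in grey on the right, with the group mean ± SD in blue; axes are linear from 0. Cldn16 lay at 1.56 to 2.39 in high-load kidneys and at 0.730 to 1.04 in low-load kidneys, and Cldn10 overlapped between the groups.

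Of 13 partner genes of salt transport in the segment 0 passed the edgeR test. At an unadjusted p under 0.05 there were 2 lower (Kcnj16 and Hpn) and 0 higher, where all genes gave 10.2% lower and 14% higher. The median log2 fold change of the 13 genes was 0.027. DESeq2 called Kcnj16 lower and 0 higher, where it called 3.77% of all genes lower and 6.47% higher. In 5 of 13 (Kcnj16, Hpn, Wnk1, Pth1r and Adcy6) all high-load kidneys lay below all low-load kidneys, against 15.8% of all genes. The part of other segments in the values of these 5 genes was not tested. Kcnj16, a potassium channel subunit of the blood side, had 290.1, 472 and 510 CPM in high-load 1 to 3, against 718, 627 and 649 CPM in low-load 1 to 3. High-load 1 was the lowest, and no high-load kidney reached the low-load range (log2 fold change -0.65, SE 0.23, edgeR adjusted p = 0.161). Hpn, the protease hepsin that processes uromodulin, had 222, 323 and 304 CPM in high-load 1 to 3, against 361, 402 and 371 CPM in low-load 1 to 3. All high-load kidneys lay below all low-load kidneys (log2 fold change -0.42, SE 0.17, edgeR adjusted p = 0.192).

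Of 12 identity genes and claudin partners 0 passed the edgeR test (median log2 fold change -0.33). At an unadjusted p under 0.05 there were 4 lower and 2 higher, where all genes gave 10.2% lower and 14% higher. DESeq2 called the same 4 lower and 1 higher, Cldn14, where it called 3.77% of all genes lower and 6.47% higher. Esrrb, a nuclear receptor, had 37.4, 33.6 and 29.0 CPM in high-load 1 to 3, against 52.8, 60.7 and 52.0 CPM in low-load 1 to 3. All high-load kidneys lay below all low-load kidneys, as in 15.8% of all genes, with a log2 fold change of -0.73 (SE 0.12, edgeR adjusted p = 0.0936). The other 3 genes with an unadjusted p under 0.05 and a lower level were Irx1, Ppp1r1a and Tmem207, at log2 fold changes of -0.51, -0.66 and -0.96.

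Both genes of that list that were higher at an unadjusted p under 0.05 encode claudins, and 2 of 12 is near the 14% of all genes. Cldn14, which blocks the claudin-16 and claudin-19 pore and is induced through the calcium-sensing receptor, had 35, 15 and 29 counts in high-load 1 to 3, against 2, 0 and 3 counts in low-load 1 to 3. Summed over kidneys this was 79 counts in high-load and 5 counts in low-load kidneys, a ratio per effective library size of 14.5 with an exact Poisson 95% interval from 5.96 to 45.9 that covers counting error only, and the edgeR adjusted p was 0.0946. Cldn14 passed the filter on low counts only through the high-load kidneys. Its ratio, interval and p are therefore a description and not support for a difference. Cldn3, a sealing claudin, had 45.6, 20.4 and 30.2 CPM in high-load 1 to 3, against 19.03, 7.90 and 19.7 CPM in low-load 1 to 3, with an edgeR adjusted p of 0.189. Its exons overlap Wbscr25 on the opposite strand. Every high-load kidney was above every low-load kidney in both, as in 17.1% of all genes, though by little for Cldn3 in high-load 2.

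**Figure D5:**
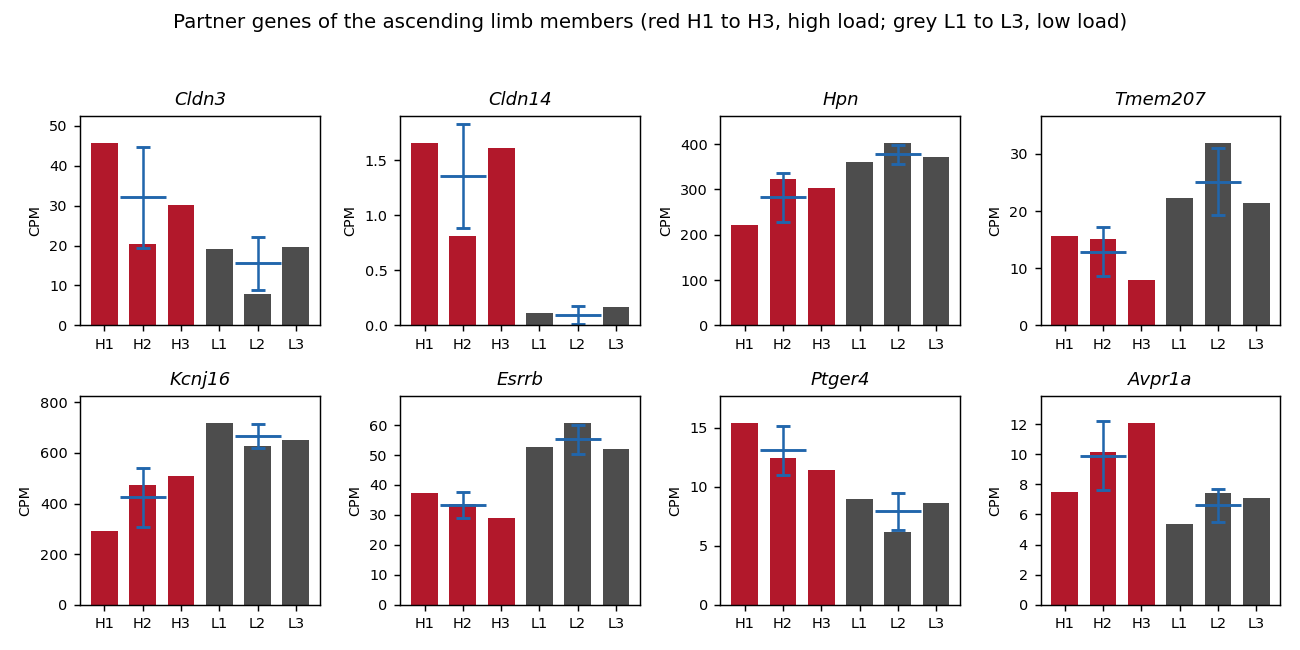
Normalised read counts (CPM, linear axes from 0) of 8 partner genes in each kidney, high-load in red on the left and low-load in grey on the right, with the group mean ± SD in blue. The genes were picked for a small p or after their values were seen, and the groups were apart in all 8, as they were in 33% of all genes, with Cldn3, Cldn14, Ptger4 and Avpr1a higher and Hpn, Tmem207, Kcnj16 and Esrrb lower in high-load kidneys, none past an adjusted p of 0.05.

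Ptger3 binds prostaglandin E2, which a set of enzymes makes and other EP receptors also bind. Of 10 genes 0 passed the edgeR test and 1 was higher at an unadjusted p under 0.05 and in DESeq2 (median log2 fold change -0.017). This was Ptger4, the EP4 receptor that raises cyclic AMP, at 15.4, 12.4 and 11.4 CPM in high-load 1 to 3, against 8.93, 6.14 and 8.66 CPM in low-load 1 to 3 (log2 fold change 0.73, SE 0.20, edgeR adjusted p = 0.123). Its exons overlap Ttc33 on the opposite strand. Ptges3, the cytosolic synthase, had the next smallest p, at a log2 fold change of 0.17. Among all genes 14% were higher at an unadjusted p under 0.05, and DESeq2 called 6.47% higher.

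Of 5 macula densa genes, markers of the sensor cells at the end of the segment, 0 passed in edgeR or DESeq2 and 1 was higher at an unadjusted p under 0.05 (median log2 fold change 0.25). This was Avpr1a, a vasopressin receptor, at 7.51, 10.2 and 12.1 CPM in high-load 1 to 3, against 5.38, 7.41 and 7.08 CPM in low-load 1 to 3 (edgeR adjusted p = 0.189). Robo2 was next, at a log2 fold change of -0.42. Among all genes 14% were higher at an unadjusted p under 0.05. The part of other cells in the values of these 5 genes was not tested.

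Markers of neighbouring segments were set beside these values, and 0 of their genes passed the edgeR test or limma-voom. All genes gave 10.2% lower and 14% higher at an unadjusted p under 0.05, and 3.77% lower and 6.47% higher in DESeq2. Of 4 thin limb markers, Aqp1, Slc14a2 and Bst1 were lower at an unadjusted p under 0.05 and Cldn4 was higher, and DESeq2 called 2 lower and 1 higher. Cldn4, a claudin also of the collecting duct, had a log2 fold change of 2.48, and Aqp1, a water channel, one of -1.01. The thin limb list's summed level was 672 to 842 CPM in high-load and 1039.8 to 1765 CPM in low-load kidneys, with no overlap. Aqp1, which the proximal tubule also expresses, made up 553 to 756 CPM of it in high-load and 939 to 1631 CPM in low-load kidneys. Without Aqp1 the sums overlapped (85.7 to 227 CPM in high-load, 98.9 to 133 CPM in low-load kidneys). Within them Cldn4 had 63.0 to 192 CPM in high-load and 16.2 to 24.6 CPM in low-load kidneys. Slc14a2 had 2.06 to 19.7 CPM in high-load and 60.8 to 85.9 CPM in low-load kidneys (log2 fold change -2.54). Bst1 had 7.07 to 15.2 CPM in high-load and 15.6 to 23.3 CPM in low-load kidneys. Of 5 distal convoluted tubule markers 4 had a fold change below 1, with Calb1 and Pvalb at log2 fold changes of -0.83 and -1.72. Their summed levels were 1313 to 3541 CPM in high-load and 2624 to 3285 CPM in low-load kidneys. Slc12a3 made up 940 to 3015 CPM of the sum in high-load and 1990 to 2612 CPM in low-load kidneys. Without Slc12a3 the sums were 373 to 533 CPM in high-load and 596 to 675 CPM in low-load kidneys, with no overlap. Calb1 was the 1 marker of that list with an unadjusted p under 0.05 and the 1 that DESeq2 called. Of 8 principal cell markers 4 lay above and 4 below a fold change of 1, with Scnn1b at a log2 fold change of 0.53 and Aqp4 at -1.29. With an unadjusted p under 0.05, 2 of the 8 were higher and 1 lower, and DESeq2 called 1 higher. The part of these segments in the members' values was not tested.

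Markers of non-tubular and urothelial cells also gave 0 genes past the edgeR threshold. All genes gave 14% higher and 10.2% lower at an unadjusted p under 0.05, and 6.47% higher and 3.77% lower in DESeq2. Of 7 macrophage markers 6 were higher at an unadjusted p under 0.05 and in DESeq2, at summed levels of 509 to 835 CPM in high-load and 279.9 to 383 CPM in low-load kidneys, and Cx3cr1 and C1qa had log2 fold changes of 0.78 and 1.38. Summed fibroblast markers were at 595 to 914 CPM in high-load and 285 to 512 CPM in low-load kidneys, with 3 of 6 higher at an unadjusted p under 0.05 and in DESeq2. Col1a2 and Col3a1, both collagen chains, had log2 fold changes of 0.72 and 1.29. The sums overlapped for 5 podocyte markers (253 to 621 in high-load, 502 to 640.4 CPM in low-load kidneys) and 6 endothelial markers (259.7 to 451 in high-load, 377 to 478 CPM in low-load kidneys). Log2 fold changes were -0.59 for Nphs1, -0.26 for Podxl, -0.54 for Flt1 and -0.41 for Ehd3, with 1 of these 11 markers at an unadjusted p under 0.05 and 0 in DESeq2. All 6 lymphocyte and all 6 urothelial markers had a fold change above 1, of which 2 lymphocyte markers, Cd3d (1.17 on the log2 scale) and Cd79a (2.40), had an unadjusted p under 0.05 and 0 were called by DESeq2. Krt5 and Upk1a had log2 fold changes of 2.17 and 1.45, each with high-load 1 far above the rest. The urothelial sum was 229, 3.42 and 2.51 CPM in high-load 1 to 3, against 47.3, 29.7 and 14.9 CPM in low-load 1 to 3. High-load 2 and high-load 3 thus lay below every low-load kidney in this sum. Krt5 had 0 counts in high-load 2 and high-load 3 and Upk3a in high-load 3.

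As a group, the 9 members had 1 kidney apart. Their mean log2 level, centred on each gene's mean over 6 kidneys, was -0.065, -0.099 and -0.053 in high-load 1 to 3, against -0.031, 0.31 and -0.057 in low-load 1 to 3. Among 10128 other genes of at least 10 CPM, those with the most similar pattern over the 6 kidneys were Bach1, Rabggtb, Map1lc3a, Cpox and Htt, with Pearson's r of 0.988 to 0.995 and Spearman's rho of 0.886 to 1. Without the 2 kidneys farthest from the median (low-load 2 and high-load 2) these r were 0.510 to 0.975. The genes were picked for the highest r over 6 kidneys, of which low-load 2 stood apart, so these values are a description and not a test.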

How the data were processed

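RNA-seq of 6 whole kidneys was used. The authors deposited raw counts per Ensembl gene, 1 column per kidney. Per the submitters' processing notes the genome was mm10 and the tools named were featureCounts 2.0.1, HISAT2 2.2.1, fastp 0.23.2, SAMtools 1.11 and edgeR. Annotation, strand setting and the treatment of multiply matching reads are not stated in those notes or in the labels, so overlapping genes and close copies have uncertain counts. Groups, replicate numbers and loads came from the labels. The labels give each kidney a code of its own but do not say outright that each is from a separate mouse, so p-values strictly measure the spread between these samples, which may be technical. Library pairs within a group had a chi-square of at least 21.4 per degree of freedom and were counted as separate samples. Symbols, positions and exon lengths came from GENCODE M21, which held 32235 of 32285 IDs.

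The counts were tested with edgeR 4.0.16 (R 4.3.3): filterByExpr with a minimum count of 10, TMM, a robust quasi-likelihood fit on group, a two-sided F test, and a threshold of 0.05 after Benjamini-Hochberg adjustment across 15955 genes. Standard errors and 95% intervals were derived from the F statistic, and the test was checked on simulated data. CPM were counts divided by TMM-scaled library size, and CPM per kb were divided by the length of all exons. Ratios to Slc12a1 used counts and an exact permutation test. The alternatives were DESeq2 1.42.0, limma-voom (limma 3.58.1), other scalings and filters, a replicate block, the mutation load as a numeric term, and each kidney left out. Leaving out high-load 1 and low-load 2 together and counting non-overlapping members by library totals were added after seeing the data.

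The members and lists were chosen with earlier results of these data known. Some genes of the partner and thin limb lists are not reported here, and the lists' counts and sums leave them out. The naming rule took all members, the 2 genes of each other list with the smallest p where none passed, and the 5 genes closest to the members' mean pattern. Genes beyond that rule (Cldn3, Irx1, Ppp1r1a, Tmem207, Wnk1, Pth1r, Adcy6, Slc12a3, Slc14a2, Bst1, Kap, Col1a1, Dcn, Lum, Pdgfra and Upk3a) are named beside counts of 5 or fewer or for their share of a sum and were chosen after their values were seen.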

Additional observations from a re-analysis of the deposited data

How the results depend on the processing

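No member was called higher under any of the 17 alternatives. The count of members called lower was 0 with all kidneys, 2 with DESeq2, and 0 to 1 with 1 kidney left out (1, Cldn10, without high-load 2). The members' median log2 fold change moved by less than the spread between kidneys in every alternative that gave it, from -0.19 without high-load 3 to -0.00034 with library totals, a scaling that raised the median of all genes by 0.12. Over all genes, 3 higher and 0 lower became 46 and 4 without a filter on low counts, 1062 and 619 with DESeq2, 8 and 2 with mutation load as a number, 414 and 97 at an adjusted p under 0.1, and 0 higher with limma-voom or without both high-load 1 and low-load 2. With library totals 1 member lay wholly above and 2 wholly below, against 0 and 3. With 1 kidney left out the counts ran from 0 to 544 higher and from 0 to 263 lower. Same-numbered kidneys did not deviate together (correlations 0.124, -0.182 and 0.0492), but weak correlations cannot exclude that the numbers pair the samples. With the replicate block 1 gene was called higher and 0 lower, and no member was called.

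Signs of small log2 fold changes depended on single choices. Cldn19 was 0.064 with library totals, and Casr was 0.22 without both high-load 1 and low-load 2. With 1 kidney left out, Cldn19 ran from -0.22 to 0.017, Bsnd from -0.0091 to 0.25, Casr from -0.25 to 0.075, and the log2 ratio of Cldn10 to Slc12a1 from -0.31 to 0.015. The cause was not tested. With 3 kidneys a group the 95% intervals of Ptger3, Umod and Casr were the widest, at -0.37 to 1.05, -1.01 to 0.17 and -0.59 to 0.37. The labels name no sequencing batch.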
